A study of Mus musculus with 6 samples.

Results

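Erg, Osr1, Mkx, Sox5, Sox9 and Hapln1 are 6 genes of tendon, joint and cartilage out of 21887 protein-coding genes in the annotation. Their chromatin was examined in mouse embryonic fibroblasts, the mesenchymal cells that grow out of a dissociated E13.5 embryo in culture. Open chromatin was measured by ATAC-seq, which uses a transposase to insert sequencing adapters into accessible DNA. There were 3 wild-type libraries (Acvr1+/+) and 3 libraries heterozygous for the receptor mutation of fibrodysplasia ossificans progressiva, or FOP (Acvr1R206H/+). The labels call the libraries biological replicates, name no treatment, and do not say whether each came from its own embryo. In FOP, a BMP receptor encoded by Acvr1 signals too strongly and soft tissue turns to bone. What was deposited is 1 list of regions more accessible in FOP cells (2965 regions, here called gained) and 1 list of regions less accessible (556, here called lost), with positions only.

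The members were chosen by these same lists. A region was linked to a gene when its midpoint lay inside the gene's span, or, outside every protein-coding span, when that gene was the nearest within 100 kb. All regions within 500 kb of each span were counted as well. The link and window counts below are therefore a description and carry no test. The lists hold no read count, fold change or value per library, so depth is unknown and the spread between replicates cannot be set beside any region. They hold no expression values either, so the fibroblast identity of the cells could not be checked against expression of its markers. A change in the mix of cells and a change within each cell cannot be told apart in such bulk libraries.

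Cartilage, joint and tendon cells arise from shared mesenchymal progenitors. SOX9 is the transcription factor that starts the cartilage programme, and SOX5 acts with it on the genes of cartilage matrix. One of those genes is Hapln1, whose product, link protein, fixes aggrecan to hyaluronan. ERG, an ETS factor, is found in joint cartilage and in endothelium. OSR1, an odd-skipped zinc finger factor, marks connective tissue and developing joints, and MKX (Mohawk) is a homeodomain factor of tendon. In FOP the extra bone forms through a cartilage stage, often in tendon, ligament and muscle, and joints become fused.

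The 6 genes had 7 linked gained regions and 3 linked lost regions. Erg, Osr1 and Hapln1 had 2 gained regions each and no lost one, Mkx had 1 of each, and Sox5 had 2 lost regions and no gained one. Sox9 had no linked region in either direction. At least 1 gained region was linked to 4 of the 6 genes, where the same holds for 7.27% of all protein-coding genes. At least 1 lost region was linked to 2 of the 6, where the background is 1.99%. Links in both directions, as at Mkx, occurred at 0.366% of all genes. The rule used these counts, so nothing is read from the contrast with the background.

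**Figure D1:**
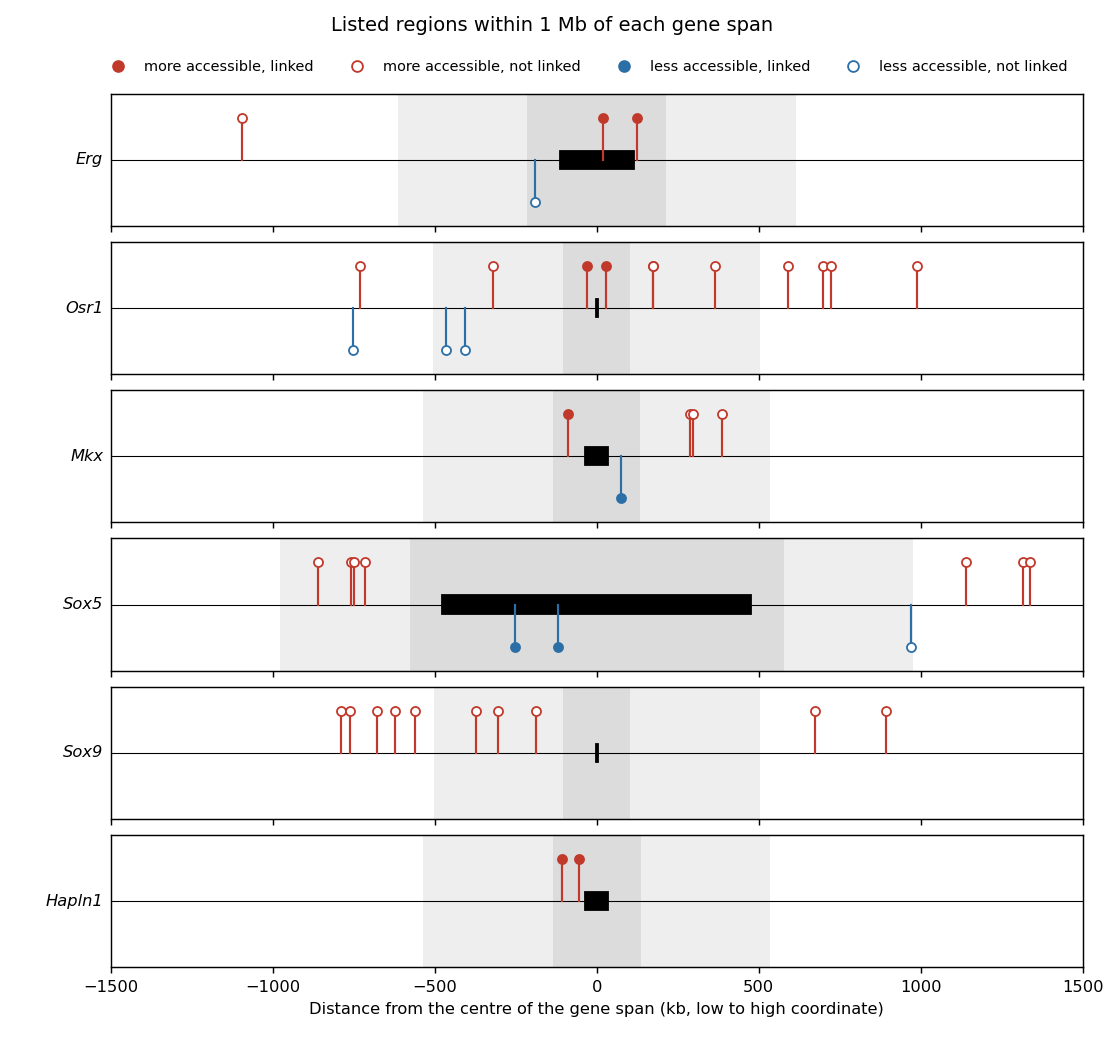
Listed regions within 1 Mb of the 6 gene spans, by distance from the centre of the span in kb (black box, the span to scale; dark and light grey, within 100 kb and 500 kb of it). Stems upward are gained and stems downward lost regions; filled points are linked to the gene. Gained regions lie on both sides of Osr1, mostly on the low-coordinate side of Sox9, and outside Sox5, which holds 2 lost regions.

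Transcription starts of Erg, Hapln1 and Sox5 were taken from the RefSeq promoter table of GRCm38.p6, which matched 3 of the 6 genes. Some of the distances at these genes are given from these starts, and the others from the edges of the span. The DNA just before the starts is shown. Sequences run 5' to 3' on the strand of the gene and end just before the start of transcription. Bases between the edge of the annotated span and the start were left out for the upstream Erg start (7 bases) and for Hapln1 (107 bases). Capitals mark matches to a TEAD (GGAATG), SOX (ACAATG or ACAAAG) or RUNX (TGTGGT) motif on either strand. The intervals are chr16:95586601-95586843 (minus strand) for the most upstream and chr16:95459349-95459598 (minus) for the most downstream of 3 Erg starts, chr13:89540386-89540528 (plus) for Hapln1 and chr6:143947107-143947356 (minus) for a start inside the Sox5 span.
Erg upstream start: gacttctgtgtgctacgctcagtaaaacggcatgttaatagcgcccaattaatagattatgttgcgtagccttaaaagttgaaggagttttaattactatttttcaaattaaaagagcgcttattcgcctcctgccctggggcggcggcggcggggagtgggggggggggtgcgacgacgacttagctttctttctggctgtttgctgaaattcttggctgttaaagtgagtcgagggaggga
Erg downstream start: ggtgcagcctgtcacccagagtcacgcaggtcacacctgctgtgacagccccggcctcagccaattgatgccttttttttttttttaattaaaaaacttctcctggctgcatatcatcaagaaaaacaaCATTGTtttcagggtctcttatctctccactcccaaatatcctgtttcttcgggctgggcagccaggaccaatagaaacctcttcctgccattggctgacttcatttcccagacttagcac
Hapln1: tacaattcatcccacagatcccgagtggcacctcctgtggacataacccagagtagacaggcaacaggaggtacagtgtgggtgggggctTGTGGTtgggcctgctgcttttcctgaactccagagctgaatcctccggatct
Sox5: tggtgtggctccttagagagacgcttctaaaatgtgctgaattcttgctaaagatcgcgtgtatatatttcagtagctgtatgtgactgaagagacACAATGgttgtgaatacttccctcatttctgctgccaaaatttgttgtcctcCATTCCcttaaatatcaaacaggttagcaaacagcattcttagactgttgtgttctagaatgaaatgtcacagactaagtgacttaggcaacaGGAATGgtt

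In the 250 bases before each start shown, the upstream Erg start had no match to any motif searched. The downstream start of Erg had 1 SOX match, the Hapln1 start 1 RUNX match, and the Sox5 start 2 TEAD matches and 1 SOX match. The middle Erg start, whose sequence is not shown, had 1 TEAD match and no other. Among 32817 promoters of the table, 25.2% held a SOX match, 14.0% a RUNX match and 12.6% a TEAD match in the same window. The other motifs searched, all without a match at the 4 starts shown, were AP-1 (TGANTCA, 6.75% of promoters), BMP-SMAD (GGCGCC, 9.59%), SMAD (GTCTAGAC, 0.168%), ETS (CCGGAA, 12%), E-box (CAGCTG, 13.0%) and NFI (0.0366%). A match describes letters and is no evidence of binding. No listed region overlapped any of these windows.

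The joint genes Erg and Osr1 both had gained regions close to them. Erg (chromosome 16, 95359169 to 95586600, minus strand, 227 kb) had 1 gained region upstream, at 95596951 to 95598019, with its midpoint 10.9 kb before the upstream start. Of the 7 gained regions linked to the 6 genes this one lay closest to a span from outside, and at 1069 bp it was wider than 94.9% of all gained regions. The other gained region, at 95493160 to 95493776 (617 bp), lay inside the gene, 34.1 kb from the downstream start and 93.1 kb into the span from its upstream edge. It was the only gained region inside a span of the 6 genes. The annotation used gives no exons, so intronic and exonic positions were not separated.

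A lost region of 883 bp lay downstream of Erg, 75.2 kb beyond its end, inside Kcnj15, a potassium channel gene to which it was linked. Within 500 kb of Erg there were thus 2 gained regions and 1 lost region. Erg is also an endothelial gene. Of 12 endothelial markers, Erg and Emcn had linked gained regions and Cdh5 had a linked lost region. Over all protein-coding genes, 7.27% had a gained link and 1.99% a lost link. The part of endothelial cells in the result was not tested.

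Osr1 had the most gained regions around it of the 6 genes. Its span is short (chromosome 12, 9574442 to 9581500, 7.06 kb), and no other protein-coding gene lay within 500 kb. The 2 linked gained regions flanked it almost evenly, at 9548416 to 9548883 (468 bp), 25.8 kb away on the low-coordinate side, and at 9607459 to 9607804 (346 bp), 26.1 kb away on the high-coordinate side. A pair of gained regions at 170 kb and 171 kb on the high side was separated by 146 bp. Others lay at 360 kb on that side and at 316 kb on the low side.

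That made 6 gained regions within 500 kb of Osr1, or 5.96 per Mb, where the autosomes as a whole had 1.21 per Mb. As many or more were found around 1.84% of all protein-coding genes. Within 1 Mb of Osr1 the number was 11, of which 8 lay on the high-coordinate side. The lost regions near Osr1 were all on the low-coordinate side, at 404, 462 and 747 kb, the first and second of them within 500 kb. One of these, 76.1 kb from Ttc32, was linked to that gene.

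Mkx, the tendon gene, was the only one of the 6 genes linked to regions of both directions. Its span is 69.8 kb (chromosome 18, 6934966 to 7004779). The gained region (6880928 to 6881822, 895 bp) lay 53.6 kb away on the low-coordinate side. The lost region (7045775 to 7046296, 522 bp) lay 41.3 kb away on the high-coordinate side, inside the long noncoding RNA gene Gm46633. The closest listed region on either side of Mkx thus differed in direction.

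Beyond the lost region, 3 more gained regions lay on the high-coordinate side of Mkx at 251, 262 and 351 kb. The first and second were inside Armc4 and the last inside Mpp7, a gene for a scaffold protein of cell junctions, so none of the 3 was linked to Mkx. In all, 4 gained regions and 1 lost region lay within 500 kb of Mkx, 3.74 and 0.935 per Mb. The autosomes had 0.228 lost regions per Mb.

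The linked regions of Sox5 were all lost regions. It is a very long gene (chromosome 6, 143828425 to 144782287, minus strand, 954 kb). Its lost regions lay inside the span at 144052527 to 144052956 (430 bp) and 144185980 to 144186437 (458 bp), 133 kb apart. The start whose sequence is shown above lay 106 kb downstream of the nearer region and 239 kb downstream of the farther one. From the upstream edge of the span, these regions lay 730 kb and 596 kb into it. Both regions were narrow for lost regions, wider than 14.6% and 18.7% of the list.

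More midpoints can fall inside a long gene. Of the 227 protein-coding genes of 500 kb or longer, 52.4% had a linked gained region and 12.3% a linked lost region, and 8 had 2 or more lost regions, as Sox5 did. Over all lengths 31 genes had 2 or more lost regions. Gained regions were near Sox5 too, all beyond its downstream end within 500 kb, at 238, 273, 281 and 383 kb. Those at 273 and 281 kb were 6.96 kb apart. All 4 were too far from any protein-coding span to be linked, and for 3 of them Sox5 was still the nearest such gene. Another lost region lay 492 kb upstream of Sox5 and was not linked to it. The window of Sox5, 1.95 Mb wide because of the long span, thus held 4 gained and 3 lost regions, or 2.05 and 1.54 per Mb. That was the highest number of lost regions among the 6 genes, but per Mb Osr1 had more, at 1.99.

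Sox9 had no region within 100 kb, and all listed regions within 1 Mb of it were gained. The gene is small (chromosome 11, 112782210 to 112787757, 5.55 kb) and is known for the wide stretch of DNA without genes around it, where distant enhancers act on it in cartilage and other tissues. Gained regions lay on its low-coordinate side at 183 kb (112598986 to 112599349, 364 bp), 302 kb (112480216 to 112480777, 562 bp) and 370 kb (112412365 to 112412828, 464 bp). These 3 made up its 500 kb count, 2.98 per Mb, and Sox9 was the nearest protein-coding gene to each of them.

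A further 5 gained regions followed on the same side of Sox9 at 557, 618, 675, 758 and 786 kb, nearer to the predicted gene Gm11677 than to Sox9. On the high-coordinate side 2 gained regions lay at 671 and 889 kb, inside Slc39a11 and Fam104a. Within 1 Mb there were 10 gained regions and 0 lost regions. Which gene such distant regions act on cannot be read from positions.

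Hapln1, the cartilage matrix gene among the 6, had 2 gained regions and no other listed region within 1 Mb. Its span is 71.3 kb (chromosome 13, 89540529 to 89611832, plus strand). Both gained regions lay upstream. The nearer one, at 89520914 to 89521949, was 1036 bp wide, wider than 94.0% of gained regions. It lay 19.1 kb before the span, or 19.2 kb before the start shown above, inside the long noncoding RNA gene Gm34699. The farther one, at 89467724 to 89468307 (584 bp), lay 72.5 kb before the span.

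Seen by distance, the linked regions of Hapln1 at 72.5 kb and of Mkx at 53.6 kb were the last inside the 100 kb limit, and the Osr1 pair at 170 and 171 kb and the Sox9 region at 183 kb were the first outside it. At the 500 kb limit, the lost regions at 462 kb from Osr1 and 492 kb from Sox5 were just inside, and the gained regions at 557 kb from Sox9 and 588 kb from Osr1 just outside. With noncoding genes also allowed as the nearest gene, 3 of the 7 gained links were left, 2 at Erg and 1 at Mkx. The gained links of Osr1 and Hapln1 and the lost link of Mkx then went to noncoding genes.

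**Figure D2:**
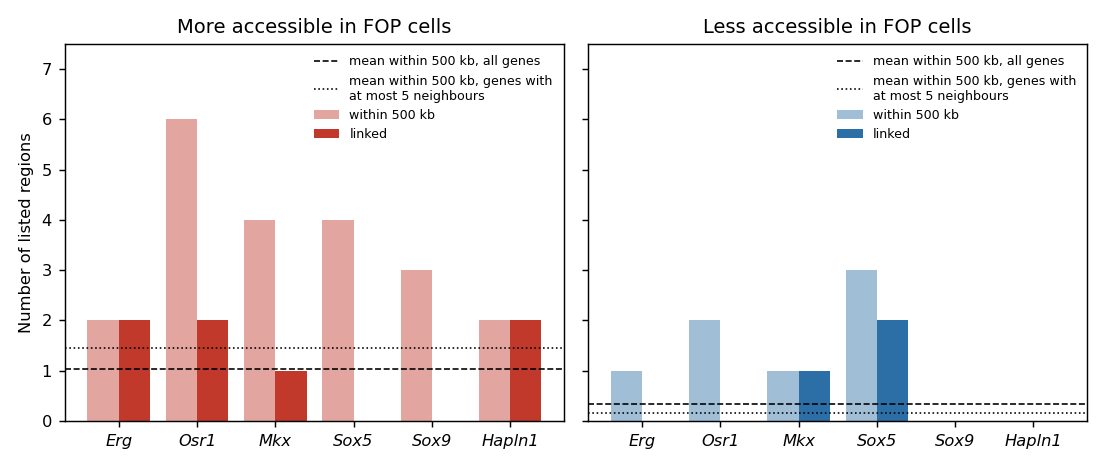
Number of gained (left) and lost (right) regions linked to each gene (dark bars) and within 500 kb of its span (light bars); dashed and dotted lines are the mean within 500 kb over all protein-coding genes and over those with at most 5 other protein-coding genes within 500 kb. All 6 genes lie above both lines for gained regions, and Sox9 and Hapln1 have no lost region.

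All 6 genes stood within 500 kb of a gained region and 4 of them within 500 kb of a lost region, against 49.9% and 25.5% of all protein-coding genes. The windows held 28 regions, 21 gained and 7 lost, so 75% were gained. In the full lists the share was 84.2% of 3521 regions. The rule counted these windows, so the shares are given side by side with no comparison. The median count within 500 kb was 3.5 gained and 1 lost over the 6 genes, and 0 and 0 over all genes, with means over all genes of 1.03 and 0.342.

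The 6 genes have few protein-coding neighbours. The rule is not independent of this, since a region outside all spans is linked to the nearest gene and 7 of the 10 links were of that kind. Each had 0 to 5 other protein-coding genes within 500 kb (median 4.5), where the median over all genes was 16. Of the 2782 genes with at most 5 such neighbours, a limit set after the members' values were seen, 18.3% had a linked gained region and 2.44% a linked lost region. Within 500 kb, 55.5% of them had a gained and 13.2% a lost region. The mean number of gained regions within 500 kb was 1.45 in these genes, against 1.03 in all, while that of lost regions was lower, at 0.157 against 0.342. In this sparse set, 4.57% of genes had as many gained regions within 500 kb as Osr1 or more, 13.3% as many as Mkx and Sox5, 22.8% as many as Sox9 and 36.3% as many as Erg and Hapln1. For lost regions, 9 of the 2782 genes (0.324%) had 3 or more, as Sox5 did, and 2.02% of all protein-coding genes. The Sox5 count came from a window of 1.95 Mb because of its long span, and window width was not matched in these shares.

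Of the 28 regions in these windows, 10 were linked to 1 of the 6 genes, 3 of them inside its span and 7 outside, and 6 were linked to another gene. The remaining 12, of which 11 were gained, were linked to no gene, and 9 of those had 1 of the 6 as the nearest protein-coding gene.

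**Figure D3:**
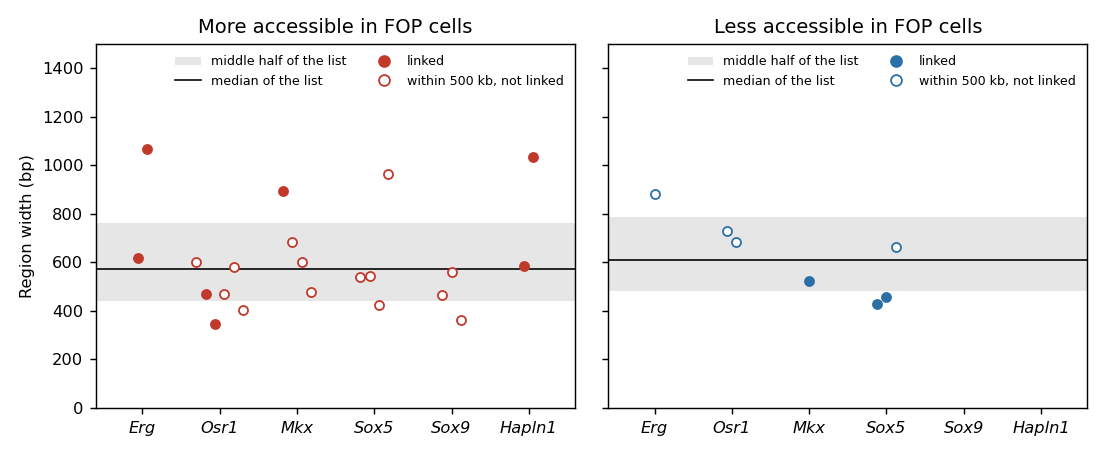
Width in bp of each gained (left) and lost (right) region within 500 kb of the 6 genes (filled, linked to the gene), with the median (line) and the range between the quartiles (grey band) of the whole list. The widest gained regions are linked ones at Erg (1069 bp) and Hapln1 (1036 bp), followed by an unlinked one near Sox5 (966 bp), and the 3 linked lost regions lie below the median of the list.

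Region width was not used by the rule. The 21 gained regions near the 6 genes were 346 to 1069 bp wide with a median of 562 bp, against 572 bp over all 2965. Of these, 13 lay between the quartiles of the list (439 and 762 bp), 4 above and 4 below. Those above were 1 each at Erg, Mkx, Sox5 and Hapln1. The 7 lost regions had a median of 662 bp, against 610 bp over the list of 556. The 3 lost regions linked to Mkx and Sox5 were 430 to 522 bp, all under that median.

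Other genes of tendon, joint and cartilage were also linked to gained regions. Without the 6 members, 13 of 67 listed tendon, joint and cartilage genes (19.4%) had a linked gained region and 0 a linked lost region, beside the backgrounds of 7.27% and 1.99%. Of these 67 genes, 20 had at most 5 neighbours within 500 kb, and 6 of those had a gained link. Among all genes with at most 5 such neighbours the share was 18.3%. With the members included the counts were 17 and 2 of 73. The median number of linked regions was 0 in each of the lists, as over all genes.

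In the tendon and ligament list, 1 of 16 genes (Mkx) had a lost link (background 1.99%) and 6 a gained link (background 7.27%). Besides Mkx these were Col14a1 with 3 regions, all inside the gene, Col12a1 with 2 (63.7 and 78.1 kb away), Lum with 2 (9.47 and 17.7 kb), Dcn with 1 (23.8 kb) and Fmod with 1 inside it. These genes encode collagens and small proteoglycans that bind collagen fibrils. Lum and Dcn are neighbours on chromosome 10 and share 1 locus. The factor gene Scx and the tendon membrane protein gene Tnmd had no link.

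In the joint list 0 of 18 genes had a lost link (background 1.99%) and 5 a gained link (background 7.27%). Besides Erg and Osr1 these were Creb5, a transcription factor gene of the joint surface, with 3 regions (2 inside and 1 at 33.8 kb), Wnt4 with 1 at 26.7 kb and Tgfbr2, a TGF-beta receptor gene, with 1 at 34.7 kb. Creb5 had 12 gained regions within 500 kb, more than any of the 6 members. Gdf5, which encodes a growth factor of the joint interzone, and Prg4, which encodes lubricin, had no link.

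Of 18 cartilage regulators, 4 had a gained link (background 7.27%) and 1, Sox5, a lost link (background 1.99%). Runx2, which drives cartilage cell maturation and bone formation, had 2 gained regions (1 inside, 1 at 89.2 kb) and 10 within 500 kb. Sox6 and Hdac4 had 1 inside each, and Mef2c had 1 at 42.2 kb. Sox6, the close relative and partner of Sox5, thus held a gained region inside its 570 kb span, and Sox5 held lost ones. Both are longer than 500 kb, and of all genes of 500 kb or longer 52.4% had a gained link and 12.3% a lost link. Sox13, the remaining SOXD gene, had 1 lost region at 46.6 kb. These are single regions, and no difference between the genes was tested.

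In the cartilage matrix list, 2 of 21 genes had a gained link (9.52%, near the background of 7.27%) and 0 a lost link. Besides Hapln1 this was Col27a1, a fibrillar collagen gene, with 1 region inside it. Acan and Col2a1, which encode aggrecan and the main cartilage collagen, had none. Of 16 paralogues of the 6 genes, Sox6 (gained) and Sox13 (lost) were the only ones with a link. None of the Iroquois genes related to Mkx, no other Hapln gene, and neither Fli1 nor Osr2 had one.

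**Figure D4:**
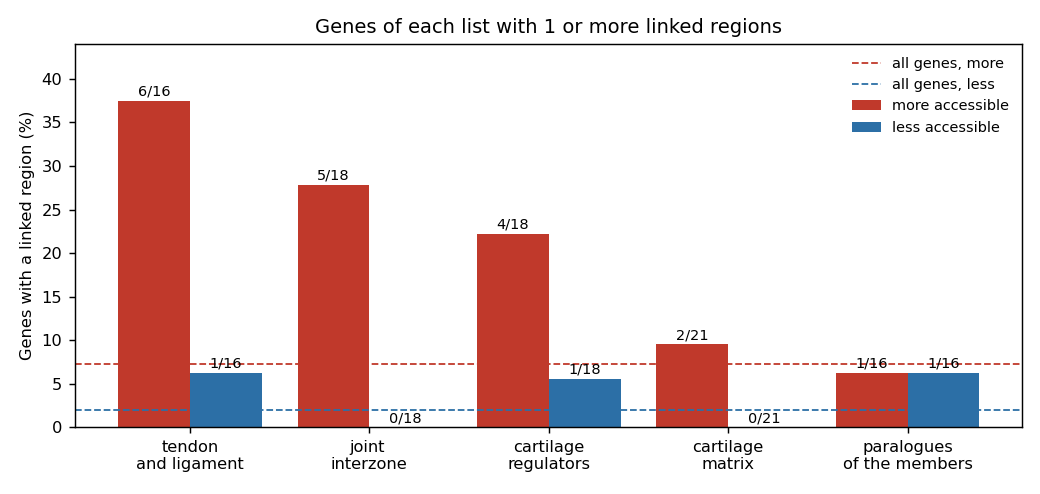
Share of the genes of each list with 1 or more linked gained (red) or lost (blue) regions, with the number of genes over the list size above each bar; dashed lines are the shares over all protein-coding genes. The tendon, joint and cartilage lists include the 6 members and the paralogue list does not; among the 5 lists drawn, the share of gained links runs from 37.5% for tendon and ligament genes to 6.25% for paralogues.

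By the sum of absolute differences over the 4 counts (linked and within 500 kb, gained and lost), the genes most like each of the 6 were sought among 81 other genes of these lists. Nkx3-2 matched Sox9 in all 4 counts, with 3 gained regions within 500 kb and no link. Tgfbr2 came within 1 of Mkx. Mef2c and Sox6 came within 1 of Hapln1, and Mef2c and Fmod within 2 of Erg. Col12a1, with 2 links and 6 gained regions within 500 kb, differed from Osr1 by 2, and Lum by 3. Sox5 had no close match, with Matn3 and Prg4 differing by 4 and neither holding a link. These counts come from 1 comparison of 3 with 3 libraries.

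Among marker lists of cell types, 4 of 12 fibroblast markers had a linked gained region (Prrx1, Fap, Dcn and Postn) and 0 a lost one. Dcn is also in the tendon and ligament list. Over all protein-coding genes, 7.27% had a gained link and 1.99% a lost link. Gained and lost links were found at 2 and 1 of 12 endothelial markers, 0 and 1 of 10 blood markers, 1 and 0 of 9 skeletal muscle markers and 0 and 2 of 9 neural and glial markers. The endothelial count includes the member Erg, and without it 1 of 11 had a gained link. No difference between these short lists was tested. The part of other cell types in the regions of the 6 genes was not tested.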

How the data were processed

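ATAC-seq regions of 3 FOP and 3 wild-type libraries were used as the authors deposited them, as 2 lists of chromosome, start and end. Their unit is the base pair position, counted from 0 in the deposited files and from 1 here. Per the submitters' processing notes, the builds were mm10 and GRCm38 and the tools were Bowtie2, Trimmomatic, MACS2, SAMtools, featureCounts, bedtools and DESeq2. Not given in the sources used here: versions, cutoffs, pooling, and handling of duplicates and of the transposase offset. Direction comes from the name of each list.

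Spans of 21887 protein-coding genes (autosomes, X and Y) came from RefSeq (GRCm38.p6), and promoter sequences from its promoter table. Links, windows, widths and motif matches were computed with Python 3.11.15, pandas 2.3.3 and numpy 2.4.6. Linking and window counts were tested on simulated regions placed at known positions inside gene spans. Links from outside all spans to the nearest gene were not covered by that test. By rule, named genes are the members, list genes with a link, genes linked to regions within 500 kb of a member, and the genes closest in 4 counts. Other genes named, such as those without a link, were chosen after their values were seen. A few named by rule are not reported here. Region motifs were planned and not run, as no genome sequence was used here. The members and lists were chosen with earlier results of these data known.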

Additional observations from a re-analysis of the deposited data

How the results depend on the processing

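The counts depended on how far a link may reach. With a limit of 10 kb the 6 genes had 1 gained link in place of 7. Of the 73 tendon, joint and cartilage genes, 9 in place of 17 had a gained link and 1 in place of 2 a lost link. The shares over all protein-coding genes were then 5.03% gained and 1.47% lost, in place of 7.27% and 1.99%. With no limit the 6 genes had 16 gained links, 3 of them each at Sox5 and Sox9. Of the list genes, 21 then had a gained link and 5 a lost link, where the shares over all genes were 8.44% and 2.31%. With all annotated genes as candidates 3 gained links were left. Linked by the nearest gene end, Sox5 lost both links and 1 lost link was left over the 6 genes. A window of 250 kb held 11 gained and 4 lost regions, and one of 1 Mb held 37 gained regions. Linking by overlap in place of the midpoint, and merging regions within 10 kb, moved no count by over 1.5 times. Where a count moved with the limit, the window or the candidate genes, the setting itself adds or removes regions or candidate genes. Linking by the nearest gene end kept the 100 kb limit but measured it from a gene end. A region deep inside a long gene then loses its link to that gene. The 2 lost regions inside Sox5 lay 596 and 730 kb from the upstream edge of its 954 kb span. Both were over 100 kb from either end, so the setting itself removed their links. No paired analysis was possible because the lists hold no value per library, and for the same reason no library could be left out. Depth per library is unknown.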
